A study of Mus musculus with 17 samples.

Results

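Fatty acid oxidation and its transcriptional control by the nuclear receptor PPAR-alpha were followed across mouse liver samples through 35 named genes. The genes were found on the arrays by the symbol that the platform annotation gives each probe, with 1 probe per gene, the one with the highest mean over 17 arrays. Of the 35 genes, 32 had a probe, out of 16593 genes with a symbol on the array. After a filter on dim probes, 29 of them remained among the 11978 genes tested, and "members" below means these 29 unless 35 is stated. No probe carried the symbols Hadha, Cyp4a10 or Acsl1. The probes of Cpt1a, Vnn1 and Fabp1, 1 for each gene, were above background on fewer than 3 arrays, so these genes are not described further in the liver samples. A dim probe does not show that its gene was not expressed. Of the 29, 27 were above background on all 17 arrays, and Pdk4 and Cyp4a14 on 16, with the missing array in each case a healthy one.

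Long-chain fatty acids are activated to acyl-CoA in the cytosol, carried into mitochondria by the carnitine shuttle and shortened there by repeated rounds of dehydrogenation, hydration, a second dehydrogenation and thiolytic cleavage. Electrons from the first step pass through the electron transfer flavoprotein to the respiratory chain, and peroxisomes shorten the chains that mitochondria take up poorly. In hepatocytes PPAR-alpha, as a heterodimer with the retinoid X receptor, binds direct repeats of a short hormone response element and raises transcription of many of these enzymes in fasting or under fibrate drugs.

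The samples were 4 arrays of FSP1 ablated liver, 3 of aSMA ablated liver, 6 of CCl4 liver with no ablation and 4 of healthy liver. FSP1 (S100a4) and alpha smooth muscle actin (aSMA, Acta2) are genes used to mark fibroblasts and myofibroblasts. The first 3 groups carry the labels CCl4 treatment and CCl4-induced fibrosis, so the ablations are compared with the CCl4 group, and a field named tk reads FSP1 +, aSMA + and Neg in them. The healthy samples had no treatment and the entry No in that field. CCl4, carbon tetrachloride, is a solvent that injures hepatocytes of the lobule centre after activation by cytochrome P450. Strain, age, sex, dose and the means of ablation are not given in the labels, and no label ties an array to an animal of its own, so p-values measure the spread between these samples, which may be technical.

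The arrays were not alike apart from their labels. Between 13304 and 14559 probes were above background per array. Before normalization the 13 arrays of CCl4-treated liver had an upper quartile of 165.4 to 178.8 intensity units and the 4 healthy ones of 63.7 to 65.7, so a batch and the healthy group cannot be told apart. The X-inactivation transcript Xist was detected on CCl4 arrays 1 to 3 and in both ablated groups (7.25 to 9.40, log2 intensity) and lay at 5.69 to 5.88 elsewhere. The Y-linked gene Eif2s3y measured 9.24 to 9.53 on CCl4 arrays 5 and 6 and the healthy arrays and 5.69 to 5.75 elsewhere, CCl4 array 4 having neither signal. A probe for albumin, Alb, was high (8.62 to 9.30) on the aSMA ablated arrays and CCl4 arrays 4 to 6 and low (6.05 to 6.58) on all others. Several results on the members are therefore also given for CCl4 arrays 1 to 3, like both ablated groups in Xist, and for CCl4 arrays 5 and 6, like healthy liver in Eif2s3y. Counts for the marker and wider-pathway lists are given over all CCl4 arrays only, and the part of these sets in them was not tested. The mean of 14 hepatocyte markers was 11.52 to 11.75 on FSP1 ablated arrays, 11.89 to 11.93 on aSMA ablated arrays, 11.39 to 11.87 on CCl4 arrays and 11.69 to 11.77 on healthy arrays. Alb is among these markers, so the sets of its probe enter this mean. The median difference of the 14 was -0.005 for aSMA ablated against healthy liver and -0.03 for FSP1 ablated against aSMA ablated liver. Acta2 averaged 7.44 ± 0.37 (SD, n = 4) in FSP1 ablated, 8.11 ± 1.05 (n = 3) in aSMA ablated, 10.39 ± 0.83 (n = 6) in CCl4 and 7.67 ± 0.73 (n = 4) in healthy liver. S100a4 lay near background in all of them (5.96, 5.90, 5.99 and 6.03), so its probe gives no check of the FSP1 label.

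The upstream sequences of 4 genes are shown because PPAR-alpha acts on its targets through an element of known form. The RefSeq promoter table (GRCm38.p6, 250 bases before to 50 after a start) held windows for 28 of the 35 genes, and not for Acaa2, Decr1, Vnn1, Cyp4a10, Cyp4a14, Hsd17b4 or Acat1. Both strands of each window were searched. The direct repeat AGGTCANAGGTCA occurred in 13 of 32851 promoters (0.0396%) and in 0 of the 31 windows of these genes. The looser form AGGNCANAGGNCA occurred in 125 promoters (0.381%) and in 1 window of these genes, that of Fabp1, the liver fatty acid binding protein, where it reads TGACCTATGGCCT on the printed strand from 67 bases before the start and contains a hexamer. The single hexamer AGGTCA occurred in 5340 promoters (16.3%) and in 5 of the 31 windows, those of Acadm, Fabp1, Creb3l3, Acadvl and Cpt1a. Below are the 250 bases before the start of Fabp1 (chr6:71199629-71199878, plus strand), of Acot1, the member with the largest fall in FSP1 ablated against CCl4 liver (chr12:84009252-84009501, plus strand), of Creb3l3 (chr10:81092592-81092841, minus strand) and of Acadm (chr3:153944644-153944893, minus strand). Each is written 5′ to 3′ on the gene's strand, with matches of the looser repeat and of the hexamer in capitals.
Fabp1: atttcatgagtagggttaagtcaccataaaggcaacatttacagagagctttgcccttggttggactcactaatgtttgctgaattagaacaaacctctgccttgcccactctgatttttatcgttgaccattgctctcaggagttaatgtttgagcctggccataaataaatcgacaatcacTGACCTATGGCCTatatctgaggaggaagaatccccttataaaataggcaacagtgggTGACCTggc
Acot1: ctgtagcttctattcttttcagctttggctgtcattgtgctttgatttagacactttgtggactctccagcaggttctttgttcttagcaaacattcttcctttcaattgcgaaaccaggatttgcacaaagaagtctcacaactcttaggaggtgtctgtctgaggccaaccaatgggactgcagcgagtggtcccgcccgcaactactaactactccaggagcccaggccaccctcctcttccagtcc
Creb3l3: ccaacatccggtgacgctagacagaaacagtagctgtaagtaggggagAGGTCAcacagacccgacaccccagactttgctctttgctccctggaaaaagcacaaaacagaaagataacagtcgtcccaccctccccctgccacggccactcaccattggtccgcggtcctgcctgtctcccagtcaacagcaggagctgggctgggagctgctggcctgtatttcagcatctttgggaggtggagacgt
Acadm: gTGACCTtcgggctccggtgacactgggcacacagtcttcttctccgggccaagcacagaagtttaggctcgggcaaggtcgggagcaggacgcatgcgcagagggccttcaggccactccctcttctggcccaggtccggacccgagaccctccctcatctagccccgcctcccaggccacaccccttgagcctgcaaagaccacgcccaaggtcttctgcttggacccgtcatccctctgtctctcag
The Acot1 stretch holds no match, which says only that these letters are not in it. The Creb3l3 window was picked for holding the hexamer, so its match was fixed by that choice. Its start in the table lies inside the annotated gene, chr10:81084329-81098872. A match is a description of letters and not evidence of binding.

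The comparison of CCl4 with healthy liver asks what the injury did to the programme. Of 29 members, 4 were higher in CCl4 liver, where 17.7% of all genes tested were higher, and 6 were lower, where 18.7% of all genes tested were lower (limma, Benjamini-Hochberg adjusted p under 0.05 over 11978 genes). Both counts lie near the background, and the member median was 0.01 against -0.03 (log2 difference) over all genes. The genes that rose were the omega-hydroxylase gene Cyp4a14, the kinase gene Pdk4 and the mitochondrial enzyme genes Hadhb and Acadm. Those that fell were the 2,4-dienoyl-CoA reductase genes Decr1 and Decr2, the peroxisomal genes Pex11a and Hsd17b4, and Acat1 and Hadh. These directions hold after arrays were given a common distribution. Without that step all genes together shifted upward in CCl4 liver. The median shift was 0.62 on the deposited scale and 0.44 after centring each array on its median. On these scales 22 and 21 members were called higher, where 8522 and 6637 of 11978 genes were. No member was called lower, where 72 and 600 genes were. The member medians were 0.84 and 0.66, and 20 of 29 members lay above the median of all genes on each scale. Relative to the median of all genes on those scales, the 4 members that rose still lay above it by 0.50 to 3.28 and the 6 that fell below it by 0.24 to 1.20.

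**Figure D1:**
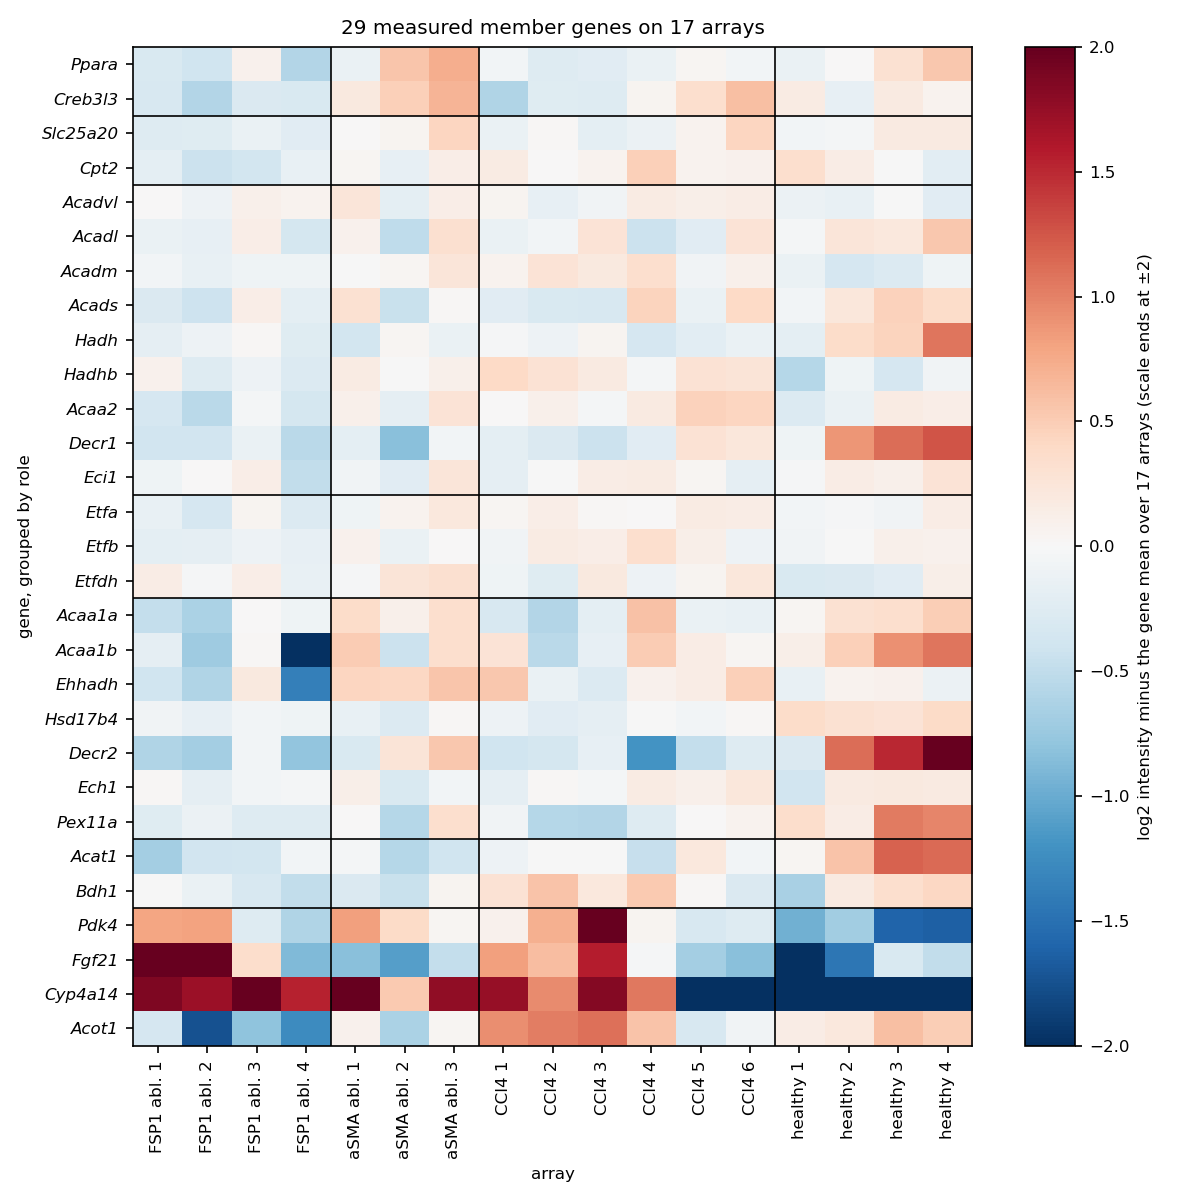
Log2 intensity of the 29 measured genes (rows, grouped by role) on 17 arrays (columns, grouped as FSP1 ablated, aSMA ablated, CCl4 and healthy), each minus the gene's own mean over all arrays. Cyp4a14 is low on CCl4 arrays 5 and 6 and in healthy liver (5.82 to 7.34) and high on the other 11 (9.92 to 11.84).

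Among the regulators, Ppara itself (chr15:85734910-85806851) measured 6.85, 7.01 and 7.15 as lowest, median and highest of the CCl4 arrays, against 6.97, 7.12, 7.42 and 7.65 on the healthy arrays. The arrays overlapped, and the difference of -0.30 ± 0.17 (log2, SE) did not pass (adjusted p = 0.18), whereas without the common distribution it was +0.60 on the deposited scale and +0.42 after median centring, both close to the shift of all genes. Creb3l3 encodes CREBH, a membrane-bound liver factor that acts with PPAR-alpha in fasting. It measured 10.002, 10.52 and 11.21 as lowest, median and highest on CCl4 arrays, against 10.44 to 10.78 on healthy arrays, a difference of -0.08 ± 0.18. Its CCl4 arrays fell into the same sets as the Alb probe, with 10.002, 10.37 and 10.35 on arrays 1 to 3 and 10.66, 10.94 and 11.21 on arrays 4 to 6.

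Of the carnitine shuttle, Cpt2, the inner-membrane palmitoyltransferase, and Slc25a20, the carnitine-acylcarnitine carrier, differed by 0.08 and -0.05 and were not called. In the mitochondrial spiral 2 of 9 measured genes rose and 2 fell, near the 17.7% and 18.7% of all genes tested that did. Hadhb encodes the beta subunit of the trifunctional protein, which carries the thiolase step for long chains (chr5:30155253-30184593). It measured 11.29, 11.61 and 11.73 as lowest, median and highest of the CCl4 arrays, against 10.77, 11.25, 10.997 and 11.27 on healthy arrays. Every CCl4 array was above every healthy one, and the difference was 0.49 ± 0.11 (1.41-fold, adjusted p = 0.00283). Acadm, the medium-chain acyl-CoA dehydrogenase gene (chr3:153922353-153944643), measured 13.03, 13.25 and 13.43 on CCl4 arrays, against 12.96, 12.77, 12.83 and 13.02 on healthy arrays. The groups did not overlap by a narrow margin, with a difference of 0.36 ± 0.08 (1.28-fold, adjusted p = 0.00372); the other Acadm probe gave 0.15 and was not called.

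Decr1 encodes the mitochondrial reductase needed for fatty acids with double bonds at even positions (chr4:15917240-15945377). It measured 8.38, 8.60 and 9.09 on CCl4 arrays, against 8.72, 9.70, 9.93 and 10.06 on healthy arrays. Healthy array 1 lay within the CCl4 range and the other healthy arrays above it, and the difference of -0.90 ± 0.23 (adjusted p = 0.00767) became +0.19 on the deposited scale and +0.01 after median centring. Hadh, the 3-hydroxyacyl-CoA dehydrogenase gene for short chains (chr3:131233419-131272101), measured 6.25, 6.47 and 6.65 on CCl4 arrays, against 6.38, 6.96, 7.03 and 7.66 on healthy arrays. Its difference of -0.55 ± 0.17 (adjusted p = 0.0210) was lost without healthy replicate 3 (-0.54) or 4 (-0.33), turned to +0.22 and +0.04 on the other scales, and was 0.09 and not called on its other probe. The remaining spiral genes, Acadvl, Acadl, Acads, Acaa2 and Eci1, differed by -0.29 to 0.22 and none was called. The electron carriers Etfa, Etfb and Etfdh differed by 0.07 to 0.19, also without a call.

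Among 7 peroxisomal members, 3 fell (18.7% of all genes tested did) and 0 rose (17.7% did). Decr2, the peroxisomal counterpart of Decr1 (chr17:26081208-26090322), measured 6.43, 7.25 and 7.46 on CCl4 arrays, against 7.34, 8.76, 9.13 and 9.80 on healthy arrays. The difference was -1.60 ± 0.35 (3.04-fold lower, adjusted p = 0.00269), and the other probe of Decr2 gave -1.68. It stayed below 0 on the other scales (-0.58 and -0.76) without passing there. Pex11a, a membrane protein that promotes peroxisome division (chr7:79735957-79743131), measured 10.60, 11.01 and 11.25 on CCl4 arrays, against 11.53, 11.33, 12.23 and 12.16 on healthy arrays. The groups did not overlap, the difference was -0.87 ± 0.20 (adjusted p = 0.00379), and its other probes gave -1.11 and -0.81. On the other scales it was +0.05 and -0.13, neither called. Hsd17b4, the multifunctional enzyme of the branched-chain and very-long-chain route, measured 12.50 to 12.74 on CCl4 arrays, against 12.99 to 13.10 on healthy arrays. Its difference of -0.42 ± 0.07 (adjusted p = 0.000201) changed sign to +0.38 and +0.20 on the other scales. The thiolase genes Acaa1a and Acaa1b (-0.43 and -0.60), Ehhadh (0.17) and Ech1 (0.01) were not called.

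Acat1, the mitochondrial acetoacetyl-CoA thiolase gene (chr9:53580522-53610350), measured 7.18, 7.62 and 7.87 on CCl4 arrays, against 7.69, 8.21, 8.82 and 8.79 on healthy arrays. It was lower by a difference of -0.80 ± 0.20 (adjusted p = 0.00627), with healthy array 1 inside the CCl4 range, and the sign turned on the other scales (+0.25 and +0.07). Bdh1, which interconverts the ketone bodies acetoacetate and 3-hydroxybutyrate, differed by 0.15. Healthy array 1 was the lowest healthy array for Decr1, Decr2, Hadh, Acat1 and Ech1.

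The largest change of any member was in Cyp4a14 (chr4:115486200-115496158), a PPAR-alpha target that encodes a cytochrome P450 hydroxylating the far end of the fatty acid chain. It measured 11.13, 10.33 and 11.23 on CCl4 arrays 1 to 3, 10.44 on array 4 and 7.34 and 7.29 on arrays 5 and 6, against 6.28, 5.97, 6.13 and 5.82 on healthy arrays. All CCl4 arrays were above all healthy ones, but in 2 sets. The difference over all 6 was 3.58 ± 0.71 (adjusted p = 0.00122). Healthy levels lay near the lower end of the scale that the offset of 50 sets, with 1 of 4 healthy arrays not above background, and the difference was 4.50 with an offset of 16 and 5.08 without background correction, so no fold is given for this gene. It was 4.85 ± 0.60 for CCl4 arrays 1 to 3 (adjusted p = 2.97e-05) and 1.26 ± 0.37 for arrays 5 and 6 (adjusted p = 0.0248), where both sides carry the Eif2s3y signal. Over all groups Cyp4a14 measured 5.82 to 7.34 on the 6 arrays with that signal and 9.92 to 11.84 on the 11 without. For CCl4 arrays 1 to 4 against healthy liver, treatment and the Eif2s3y signal cannot be told apart. Cyp4a12a, a related P450 known for its male-predominant expression in mice, measured 6.42 to 6.79 on CCl4 arrays 1 to 4, 12.18 and 11.68 on arrays 5 and 6, and 12.83 to 13.17 on healthy arrays. Whether the Cyp4a14 probe also binds transcripts of its close relatives was not tested.

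Pdk4 encodes the kinase that shuts pyruvate out of the citrate cycle when fat is burned (chr6:5483351-5496278). It measured 7.17, 7.55 and 10.10 as lowest, median and highest of the CCl4 arrays, against 6.53, 6.79, 5.89 and 5.86 on healthy arrays. The groups did not overlap and the difference was 1.70 ± 0.48 (adjusted p = 0.0129), with array 3 far above the other CCl4 arrays. Fgf21, the gene of a hepatokine induced by PPAR-alpha (chr7:45613890-45615490), measured 7.26, 8.39 and 9.66 on CCl4 arrays, against 6.07, 6.64, 7.79 and 7.60 on healthy arrays; its difference of 1.31 ± 0.70 did not pass (adjusted p = 0.16). Acot1, a cytosolic acyl-CoA thioesterase gene, differed by 0.16 ± 0.30.

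When CCl4 arrays 5 and 6 alone were set against healthy liver, 3 members were higher (11% of all genes were) and 2 lower (9.19% of all genes were). Higher were Cyp4a14, Hadhb (0.53 ± 0.15, adjusted p = 0.0212) and Acaa2 (0.47 ± 0.15, adjusted p = 0.0428). Lower were Decr2 (-1.49 ± 0.49, adjusted p = 0.0432) and Hsd17b4 (-0.34 ± 0.09, adjusted p = 0.0112). Pdk4 was 0.93 there (adjusted p = 0.30) and 2.35 ± 0.50 for arrays 1 to 3 (adjusted p = 0.00193). Beside these changes the marker lists of other cells moved. Of 12 myofibroblast markers 11 were higher in CCl4 liver, with array means of 8.53 to 9.10 against 6.84 to 7.21 in healthy liver. Of 14 macrophage markers 11 were higher (9.16 to 9.65 against 7.66 to 8.34), and of 7 cycling-cell markers all 7 (8.80 to 10.49 against 6.10 to 6.49). Of 14 hepatocyte markers 3 were lower and 0 higher, with a median difference of -0.12 and overlapping array means (11.39 to 11.87 against 11.69 to 11.77). Of all genes tested 17.7% were higher and 18.7% lower, so the hepatocyte count of lower markers lies near the background. The part of these cells in the results was not tested. In bulk tissue a change in hepatocyte number and one in RNA per hepatocyte cannot be told apart.

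**Figure D2:**
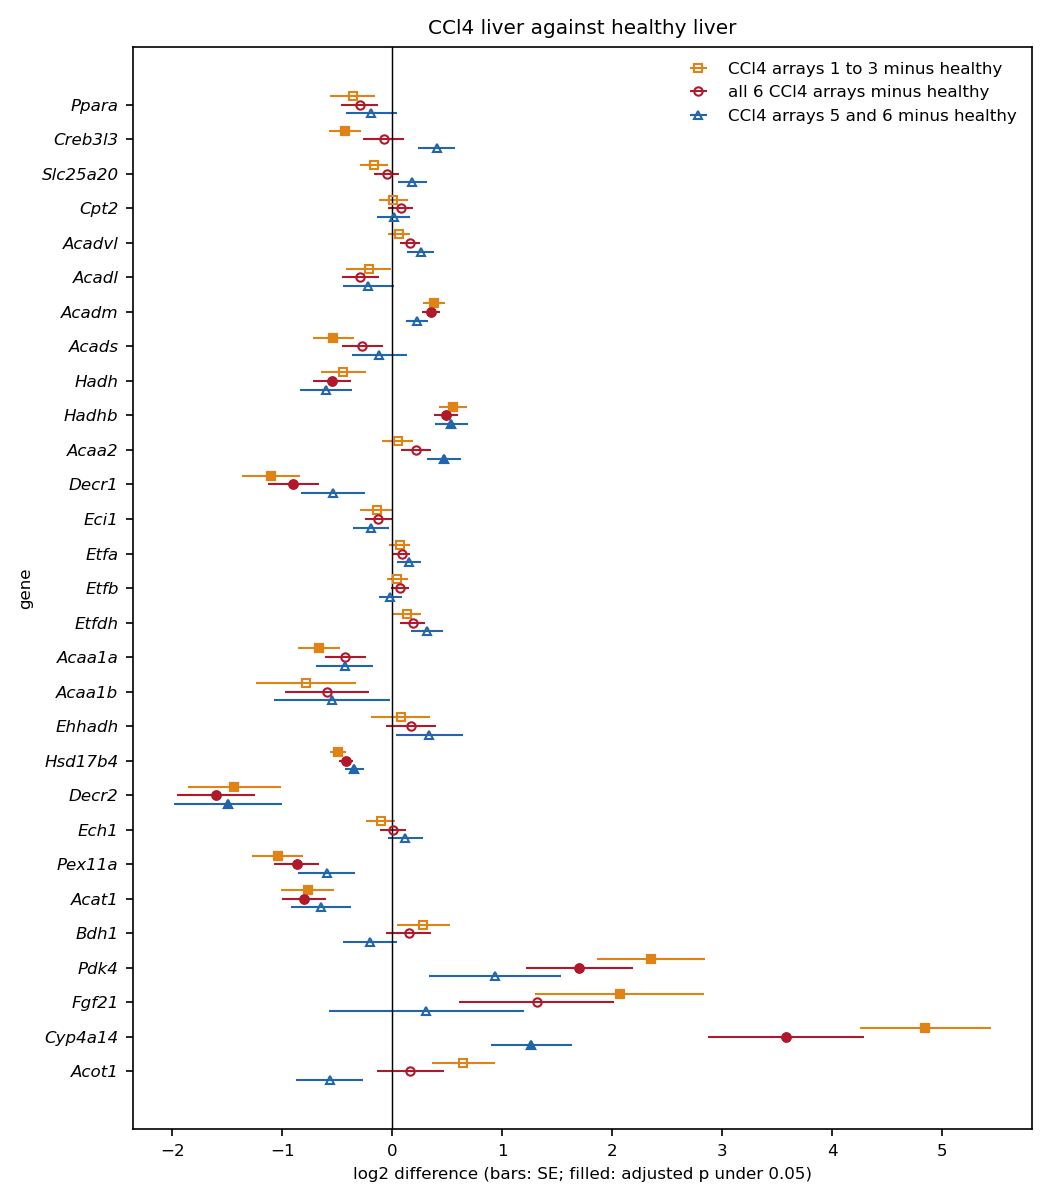
Log2 difference from healthy liver of each of the 29 genes, for all CCl4 arrays and for parts of them, with bars for the SE and filled symbols for an adjusted p under 0.05. Cyp4a14 stands furthest to the right, at 4.85 for CCl4 arrays 1 to 3 and 1.26 for arrays 5 and 6, and Decr2 furthest to the left, at -1.44 and -1.49.

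FSP1 ablated liver was set against CCl4 liver, the group that carries the same CCl4 label and no ablation. No member was higher, where 6.14% of all genes tested were, and 6 of 29 were lower, where 8.06% of all genes tested were. They were Acot1, Acaa2, Cpt2, Hadhb, Etfa and Etfb. Over all members the median was -0.23 against 0.01 for all genes, and 25 of 29 members lay below the median of all genes (22 on each of the other scales). Below 0 were 24 of 29 members and 20 of 23 respiratory chain subunits (median -0.19), but 7 of 17 other mitochondrial beta-oxidation genes (median 0.11). Apart from Acot1 the falls were small, between 0.25 and 0.50 on the log2 scale.

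Among the members the largest fall was in Acot1 (chr12:84009502-84017670), whose product releases free fatty acids from acyl-CoA and whose transcript is strongly induced by PPAR-alpha. It measured 9.94, 8.54, 9.48 and 9.02 on FSP1 ablated arrays, against 11.21, 11.30, 11.38, 10.85, 9.96 and 10.21 on CCl4 arrays. All FSP1 ablated arrays lay below all CCl4 arrays, by a bare margin for CCl4 array 5. The difference was -1.57 ± 0.30 (2.97-fold lower, adjusted p = 0.00264). It was -2.05 ± 0.29 against CCl4 arrays 1 to 3 (adjusted p = 0.000214), -1.09 ± 0.29 against arrays 4 to 6 (adjusted p = 0.0165), and -0.84 without passing against arrays 5 and 6 (adjusted p = 0.084). The second Acot1 probe gave -0.93 (adjusted p = 0.0575). Transcripts of the neighbouring thioesterase genes of this family are close in sequence, and their share in the signal was not tested.

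Cpt2 (chr4:107903982-107923589) measured 11.23, 10.99, 11.06 and 11.28 on FSP1 ablated arrays, against 11.43, 11.50 and 11.90 as lowest, median and highest of the CCl4 arrays. The groups did not overlap and the difference was -0.43 ± 0.11 (1.35-fold lower, adjusted p = 0.0172). The mitochondrial thiolase gene Acaa2 measured 11.77, 11.58, 12.08 and 11.77 on FSP1 ablated arrays, against 12.08, 12.25 and 12.57 on CCl4 arrays. Its difference was -0.50 ± 0.13 (1.42-fold lower, adjusted p = 0.0185), and the groups overlapped only at 12.08. The 3 other Acaa2 probes gave -0.11 to -0.17, none of them called. Hadhb measured 11.42, 11.07, 11.23 and 11.07 on FSP1 ablated arrays, against 11.29 to 11.73 on CCl4 arrays (-0.37 ± 0.11, adjusted p = 0.0353).

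Etfa and Etfb encode both subunits of the electron transfer flavoprotein. Etfa (chr9:55454436-55512243) measured 13.37, 13.20, 13.58 and 13.25 on FSP1 ablated arrays, against 13.53, 13.61 and 13.69 on CCl4 arrays. All but FSP1 ablated array 3 lay below every CCl4 array, and the difference was -0.26 ± 0.08 (adjusted p = 0.0396). Its 3 other probes gave -0.08 to -0.28, none called. Etfb (chr7:43444072-43457800) measured 13.11 to 13.22 on FSP1 ablated arrays, against 13.21 to 13.65 on CCl4 arrays. Its difference was -0.25 ± 0.08 (adjusted p = 0.0482), and its second probe gave -0.36 (adjusted p = 0.0153). Etfdh, the dehydrogenase that passes the electrons to ubiquinone, differed by 0.02.

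Ppara, the inducible targets Cyp4a14, Fgf21 and Pdk4 and the peroxisomal gene Ehhadh did not pass the test, and whether they differed from the genes that did was not tested. Ppara measured 6.81, 6.70, 7.19 and 6.52 on FSP1 ablated arrays (-0.19 ± 0.17 against CCl4, adjusted p = 0.53). Cyp4a14 measured 11.25, 11.10, 11.84 and 10.93 there, a difference of 1.65 ± 0.71 that did not pass (adjusted p = 0.14). Against CCl4 arrays 1 to 3 it was 0.38 ± 0.60 (adjusted p = 0.78), and against arrays 5 and 6 it was 3.96 ± 0.37 (adjusted p = 1.7e-05). Arrays 5 and 6 carry the Eif2s3y signal and the FSP1 ablated arrays do not. Fgf21 ran from 7.22 to 11.72 among the 4 FSP1 ablated arrays (1.05 ± 0.70, adjusted p = 0.37), and Pdk4 from 6.89 to 8.29 (-0.30 ± 0.48). Ehhadh, the peroxisomal bifunctional enzyme gene, measured 8.27, 8.08, 8.87 and 7.30 (-0.68 ± 0.23, adjusted p = 0.0554), a larger difference than that of any called member but Acot1, with a larger SE.

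**Figure D3:**
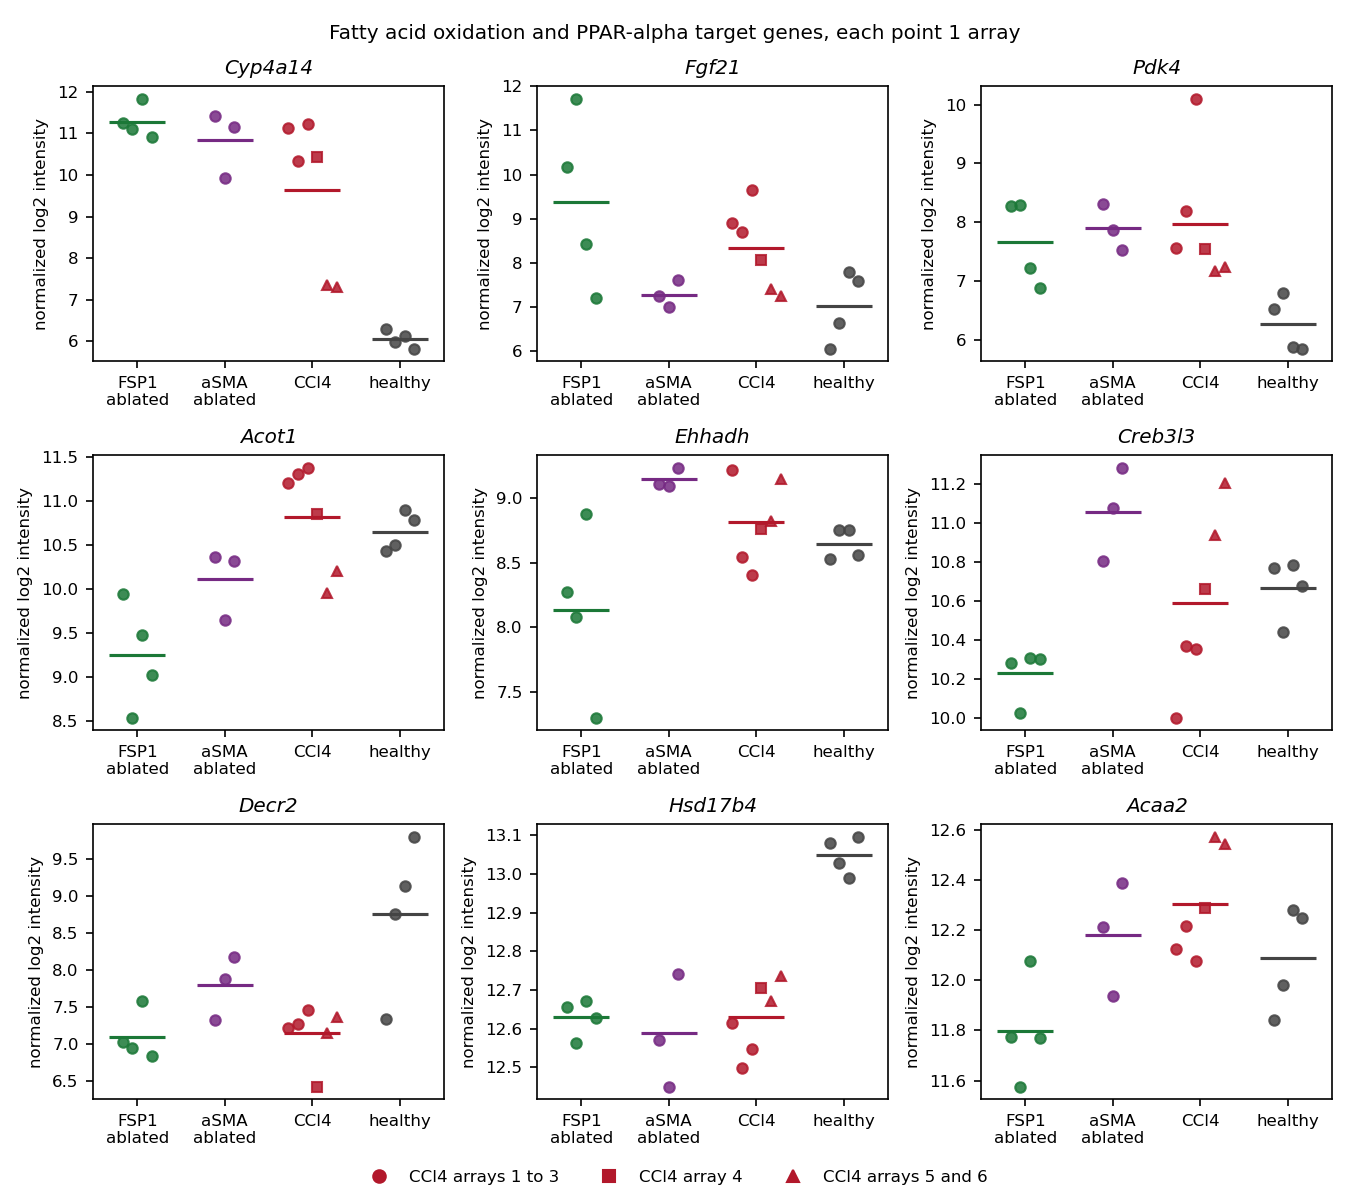
Normalized log2 intensity of 9 member genes, 1 point per array with a line at the group mean, for FSP1 ablated, aSMA ablated, CCl4 and healthy liver; CCl4 arrays 1 to 3, 4, and 5 and 6 have their own symbols. Acot1 is lowest in FSP1 ablated liver (8.54 to 9.94), and CCl4 arrays 5 and 6 lie apart for Cyp4a14 (7.34 and 7.29).

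Against CCl4 arrays 1 to 3, which match the FSP1 ablated arrays in Xist and in the Alb probe, 0 members were higher (6.44% of all genes were) and 2 were lower (7.85% of all genes were), Acot1 and Hadhb (-0.43 ± 0.13, adjusted p = 0.0382). The other 4 kept negative differences there without passing, Cpt2 at -0.36 (adjusted p = 0.081) and Acaa2 at -0.34 (adjusted p = 0.13). With each of the 17 arrays left out in turn, Acot1 was called every time. Cpt2 (-0.38) and Acaa2 (-0.43) lost the call without FSP1 ablated replicate 2, Hadhb in 7 of these fits, Etfa in 8 and Etfb in 13, and 1 member passed without that replicate. Beside these falls, 8 of 12 myofibroblast markers were lower in FSP1 ablated liver (array means 7.25 to 7.90 against 8.53 to 9.10), and so were all 7 cycling-cell markers (6.19 to 7.45 against 8.80 to 10.49). Of 14 hepatocyte markers 3 were higher and 0 lower, with overlapping array means (11.52 to 11.75 against 11.39 to 11.87). Of 23 respiratory chain subunits 1 was lower (array means 11.18 to 11.59 against 11.41 to 11.75). Of all genes tested 6.14% were higher and 8.06% lower. The part of these markers in the falls was not tested.

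aSMA ablated liver was compared with the same CCl4 arrays. No member was called in either direction, where 0.00835% of all genes tested were called, that is 1 of 11978 (1394 had an unadjusted p under 0.05, among them 2 members). The regulators came nearest. Ppara measured 6.98, 7.66 and 7.83 on aSMA ablated arrays, against 6.85 to 7.15 on CCl4 arrays, so 2 of the 3 lay above every CCl4 array. The difference was 0.50 ± 0.18 (95% interval 0.11 to 0.89, adjusted p = 0.30). Creb3l3 measured 10.81, 11.08 and 11.29, against 10.002 to 11.21 on CCl4 arrays (0.47 ± 0.20, adjusted p = 0.39). Acot1 measured 10.36, 9.64 and 10.32, against 9.96 to 11.38 (-0.71 ± 0.33, adjusted p = 0.43).

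The absence of a call does not show equal levels. For Fgf21 the difference of -1.05 had an interval of -2.68 to 0.58, and for Cyp4a14 that of 1.20 had one of -0.44 to 2.85. The Cyp4a14 value averages 2 sets of CCl4 arrays, with -0.06 ± 0.64 against arrays 1 to 3 (adjusted p = 0.97) and 3.52 ± 0.38 against arrays 5 and 6 (adjusted p = 0.000198), where it was the 1 member called higher (0.175% of all genes were). Arrays 5 and 6 carry the Eif2s3y signal and the aSMA ablated arrays do not. The interval for Acadm (-0.06) ran from -0.25 to 0.13, and that for Hsd17b4 (-0.04) from -0.19 to 0.11. Against CCl4 arrays 1 to 3 alone, 1 member was higher, Creb3l3 (0.82 ± 0.16, adjusted p = 0.00518; 4.58% of all genes were higher), and 1 lower, Acot1 (-1.19 ± 0.31, adjusted p = 0.0234; 5.94% were lower). Those CCl4 arrays are like the aSMA ablated ones in Xist but not in the Alb probe, and no CCl4 array is like them in both. Against arrays 5 and 6, Creb3l3 was at -0.02 and Acot1 at 0.03. Weighting arrays by how closely their values followed their group means gave 3 higher members, among them Ppara (0.70, adjusted p = 0.00933) and Creb3l3 (0.72, adjusted p = 0.010). With these weights 768 of 11978 genes were called higher and 1005 lower.

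**Figure D4:**
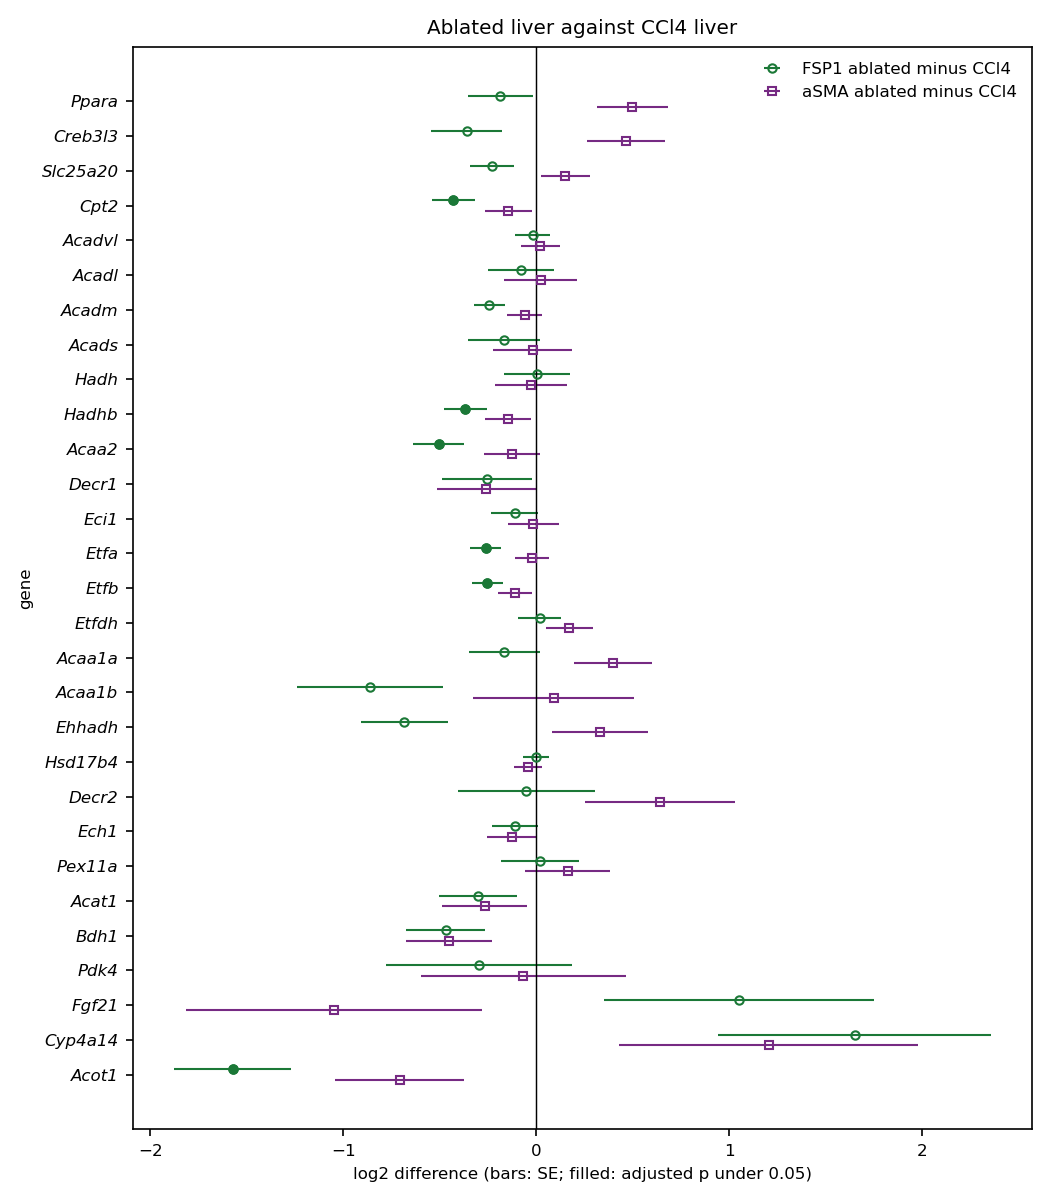
Log2 difference from CCl4 liver of each of the 29 genes in FSP1 ablated and aSMA ablated liver, with bars for the SE and filled symbols for an adjusted p under 0.05. Filled symbols are 6 genes of FSP1 ablated liver, with Acot1 (-1.57) furthest to the left, and none of aSMA ablated liver.

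The ablated livers were also compared with each other. In FSP1 ablated liver 0 members were higher than in aSMA ablated liver (2.11% of all genes were) and 2 were lower (3% of all genes were), Ehhadh and Creb3l3. Ehhadh (chr16:21761285-21787834) measured 8.27, 8.08, 8.87 and 7.30 on FSP1 ablated arrays, against 9.11, 9.09 and 9.23 on aSMA ablated arrays. The groups did not overlap, array 4 of the FSP1 ablated group lay lowest, and the difference was -1.01 ± 0.27 (2.02-fold lower, adjusted p = 0.0398). Creb3l3 measured 10.28, 10.03, 10.31 and 10.30 on FSP1 ablated arrays, against 10.81, 11.08 and 11.29 on aSMA ablated arrays, also without overlap (-0.83 ± 0.22, 1.77-fold lower, adjusted p = 0.0405). Ppara lay on the same side (-0.68 ± 0.20, adjusted p = 0.0577) with overlapping arrays. The difference in Ehhadh and Creb3l3 coincides with the Alb probe, low on all FSP1 ablated and high on all aSMA ablated arrays, and group and set cannot be told apart. With 1 array left out, Ehhadh lost the call in 9 of 17 fits and Creb3l3 in 8, and 0 to 4 members passed.

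Against healthy liver, the ablated groups are set apart by the treatment, by the array scale and by the Xist and Y-linked signals at once, and these cannot be told apart. In FSP1 ablated liver 2 members were higher (9.76% of all genes were) and 7 lower (9.53% of all genes were). Higher were Cyp4a14 (5.23 ± 0.78, adjusted p = 0.000548) and Fgf21. Fgf21 measured 10.18, 11.72, 8.44 and 7.22 on FSP1 ablated arrays, against 6.07, 6.64, 7.79 and 7.60 on healthy arrays. Its difference was 2.36 ± 0.77 (adjusted p = 0.0423), with the lowest FSP1 ablated array inside the healthy range, and the call was lost in 10 of 17 fits with 1 array left out (1.59 without FSP1 ablated replicate 2). Lower were Decr2 (-1.65), Acaa1b (-1.46), Acot1 (-1.41), Decr1 (-1.15), Acat1 (-1.10), Pex11a (-0.85) and Hsd17b4 (-0.42). Acaa1b, a peroxisomal thiolase gene (chr9:119148043-119157093), measured 12.93, 12.40, 13.14 and 10.73 on FSP1 ablated arrays, against 13.24, 13.59, 14.02 and 14.19 on healthy arrays. Array 4 lay far below the others, the difference without it was -0.93, and the call was lost without healthy replicate 3 (-1.37) or 4 (-1.32). Pex11a lost its call without the same healthy replicates (-0.71 and -0.73).

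In aSMA ablated liver 3 members were higher than in healthy liver (11.9% of all genes were) and 4 lower (12.2% of all genes were). Cyp4a14 measured 11.42, 9.92 and 11.16 (4.78 ± 0.84 above healthy, adjusted p = 0.00103). Pdk4 measured 8.31, 7.87 and 7.53 (1.63 ± 0.57, adjusted p = 0.0494), and Acadm 13.09, 13.14 and 13.34 (0.30 ± 0.10, adjusted p = 0.0375). Decr1 (-1.16), Acat1 (-1.07), Pex11a (-0.70) and Hsd17b4 (-0.46) were lower, as they were in CCl4 and FSP1 ablated liver, which were set against the same 4 healthy arrays. With 1 array left out, Pdk4 lost the call in 14 of 17 fits, Pex11a in 9 and Acadm in 4, and Decr1 without aSMA ablated replicate 2 (-0.92). Without the common distribution all genes were higher by a median of 0.62 in FSP1 ablated and 0.67 in aSMA ablated liver on the deposited scale, and by 0.46 and 0.51 after median centring. On those scales no member was called lower in either group. Of 11978 genes, 75 and 252 were lower in FSP1 ablated and 57 and 427 in aSMA ablated liver. The difference of Hsd17b4 turned positive, to 0.49 and 0.33 in FSP1 ablated and 0.49 and 0.32 in aSMA ablated liver.

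Genes of the wider pathway that are not among the 35 were taken from lists and compared over all CCl4 arrays. Beside them, 17.7% of all genes tested were higher in CCl4 than in healthy liver and 18.7% were lower. The 4 higher mitochondrial and 5 lower peroxisomal genes given next lie near these shares. In CCl4 against healthy liver, 4 of 17 other mitochondrial beta-oxidation genes were higher and 11 lower, with a median of -0.46. The thioesterase gene Acot2 (-0.53 ± 0.08, adjusted p = 0.000198) and Acsm1 (-0.85 ± 0.16, adjusted p = 0.000828), a medium-chain acyl-CoA synthetase gene, had the smallest p. Of 19 other peroxisomal genes 1 was higher and 5 lower, among them Acox3 (-1.12 ± 0.16) and the peroxin gene Pex16 (-1.09 ± 0.19). Of 15 partners and coregulators of PPAR-alpha 0 were higher and 6 lower. They included Rxra, its heterodimer partner (-0.75 ± 0.11, adjusted p = 9.09e-05), and the coactivator gene Ncoa1 (-0.47 ± 0.12). Of 23 further PPAR-alpha targets 1 was higher and 10 lower, with a median of -0.47, among them the glycerol channel gene Aqp9 (-0.74 ± 0.14) and the male-predominant Cyp4a12b (-2.85 ± 0.35). The shifts of all genes on the other scales, 0.62 and 0.44, exceed several of these differences. Of 6 fatty acid uptake genes 1 was higher, the lipoprotein lipase gene Lpl (3.69 ± 0.26, adjusted p = 1.67e-07), and 2 lower, among them the bile acid and fatty acid CoA ligase gene Slc27a5 (-1.07 ± 0.26). Of 3 ketogenesis genes 1 was higher, Oxct1 (1.06 ± 0.19), which encodes the ketone-consuming transferase that hepatocytes normally lack. Of 23 respiratory chain subunits 2 were higher and 0 lower.

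In FSP1 ablated against CCl4 liver few genes of the same lists passed, beside 6.14% of all genes tested that were higher and 8.06% that were lower. Of the 17 mitochondrial genes 1 was higher, the carrier gene Slc25a29 (0.44 ± 0.10), and 1 lower, the enoyl-CoA isomerase gene Eci2 (-0.54 ± 0.13). Of the 19 peroxisomal genes 2 were higher, Acox3 (0.74 ± 0.16) and Pex13 (0.44 ± 0.11) among them, and 1 lower. Of 3 ketogenesis genes 2 were lower, Bdh2 (-1.53 ± 0.30, adjusted p = 0.00321) and Oxct1 (-0.65 ± 0.19). Lpl was lower (10.73, 9.58, 9.84 and 10.02 on FSP1 ablated arrays, against 11.76 to 12.47 on CCl4 arrays, -2.13 ± 0.26), and Fabp5, a fatty acid binding protein gene, higher (0.92 ± 0.26). Of 15 partners 2 were higher, Lpin1, a PPAR-alpha coactivator and phosphatidate phosphatase gene (1.47 ± 0.41, adjusted p = 0.0263), and Ncoa1 (0.37 ± 0.12). Of 23 further targets 2 were higher, among them Klb, the co-receptor gene for FGF21 (0.72 ± 0.10, adjusted p = 0.000143), and 2 lower, among them the carboxylesterase gene Ces1f (-1.64 ± 0.34). In aSMA ablated against CCl4 liver none of the genes of these lists passed, where 0.00835% of all genes tested did. Klb came nearest there (0.55 ± 0.11, adjusted p = 0.0631), followed by Lpin2 (0.99 ± 0.25, adjusted p = 0.14). In FSP1 ablated against aSMA ablated liver, 3 of the 17 mitochondrial genes were lower, where 3% of all genes tested were. Among them were Eci2 (-0.77) and the acetyl-CoA synthetase gene Acss1 (-0.79). Bdh2 (-1.65), Lpl (-1.90) and Lpin2 (-1.13) were lower too, and no gene of these lists was higher (2.11% of all genes were).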

How the data were processed

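RNA of 17 mouse liver samples had been hybridised to single-colour Illumina bead arrays. The authors deposited one intensity per probe and array. Per the submitters' processing notes the program was GenomeStudio; its version and what the program subtracted or scaled were not given in the sources used here. Groups follow the sample titles. A second table was left out because the headings of its 34 columns match no label.

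Intensities were corrected with normexp (offset 50, background from the mode of each array), quantile normalized and put on the log2 scale. Probes above the 95th percentile of background on at least 3 arrays were kept (16115 of 25697), and 1 probe per gene was used. Of all probes, 23978 had 1 symbol, 0 several and 1719 none, and 954 unnamed probes were tested singly. One limma fit (3.58.1, R 4.3.3) over all arrays gave 6 two-sided contrasts with Benjamini-Hochberg adjustment over 11978 genes. The number of arrays limits the precision, and no slide or date is given. In data simulated for each contrast, 82.5% to 93% of 200 genes changed by 1 log2 unit were recovered. Recovery of smaller changes was not tested. Whether the same share holds for the measured arrays, with their sets in Xist, Eif2s3y and the Alb probe, was not tested either.

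All members are described. Values by array are given for Ppara, for the 5 largest rises and 5 largest falls among passing members of a comparison, and, where under 3 passed, for the 3 with the smallest p; other lists give up to 2 genes. The members and lists were chosen with earlier results of these data known.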

Additional observations from a re-analysis of the deposited data

Results flagged for a closer look

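Single arrays stood far from the rest of their group for 5 of 29 members, out of 87 gene and group combinations checked; chance alone would give about 1 in 20. FSP1 ablated array 2 measured 10.03 for Creb3l3, with the other FSP1 ablated arrays at 10.28 to 10.31. In CCl4 liver, array 4 was high for Cpt2 (11.90, with the others at 11.43 to 11.59) and low for Decr2 (6.43, with the others at 7.15 to 7.46), and array 3 was high for Pdk4 (10.10, with the others at 7.17 to 8.19). Healthy array 1 was low for Ech1 (12.64, with the others at 13.20 to 13.22). The difference between FSP1 ablated and aSMA ablated liver in the direct contrast was -1.01 for Ehhadh and -0.83 for Creb3l3, both past the threshold, with the Alb probe signal low on all FSP1 ablated and high on all aSMA ablated arrays.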

How the results depend on the processing

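Without the common distribution given to all arrays, comparisons with healthy liver changed in the direction of their calls. The deposited scale called 22 members in CCl4, 19 in FSP1 ablated and 21 in aSMA ablated liver, and median centring 21, 15 and 19, all of them higher. Of 11978 genes, 8522, 8057 and 8209 were higher on the deposited scale and 6637, 6423 and 6624 after centring. In CCl4 against healthy liver the sign turned on the deposited scale and after centring for Acat1 (0.25 and 0.070), Decr1 (0.19 and 0.0068), Hadh (0.22 and 0.038), Hsd17b4 (0.38 and 0.20) and Ppara (0.60 and 0.42), and on the deposited scale alone for Pex11a (0.050). In FSP1 ablated against healthy liver it turned for Hsd17b4 (0.49 and 0.33), Ppara (0.32 and 0.17) and, on the deposited scale, Pex11a (0.12). In aSMA ablated against healthy liver it turned for Hsd17b4 (0.49 and 0.32), Pex11a (0.32 and 0.15) and, on the deposited scale, Acat1 (0.002). The cause was not tested.

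In FSP1 ablated against CCl4 liver 2 members passed on the deposited scale, 1 after centring, 2 without background correction, 2 against CCl4 arrays 1 to 3 and 8 with array weights. Of 11978 genes, 1928, 1957, 1401, 1711 and 2352 passed in these settings. In FSP1 ablated against aSMA ablated liver 0 passed without background correction, 0 without the filter, 1 with the compared groups alone and 11 with array weights. The genes passing were 398 of 11978, 373 of 18312, 665 of 11978 and 2719 of 11978. Array weights gave 17 members in FSP1 ablated and 11 in aSMA ablated against healthy liver, where 4171 and 4777 of 11978 genes passed. In aSMA ablated against CCl4 liver 3 passed with array weights, 2 against CCl4 arrays 1 to 3 and 1 against arrays 5 and 6. Of 11978 genes, 1773, 1260 and 61 passed in these settings. Against arrays 5 and 6 Acot1 (0.028) and Creb3l3 (-0.016) changed sign. CCl4 arrays 5 and 6 against healthy liver gave 5. Leaving out 1 array gave 9 to 11 members for CCl4 against healthy, 1 to 6 for FSP1 ablated against CCl4, 0 for aSMA ablated against CCl4, 0 to 4 for FSP1 ablated against aSMA ablated, 6 to 13 for FSP1 ablated against healthy and 3 to 8 for aSMA ablated against healthy liver. For FSP1 ablated against CCl4 the count was 3 without CCl4 replicate 2, 1 without FSP1 ablated replicate 2 and 3 without FSP1 ablated replicate 4. For FSP1 ablated against aSMA ablated it was 0 without aSMA ablated replicates 2 or 3, FSP1 ablated replicates 1, 2 or 4 and healthy replicates 3 or 4, 1 without aSMA ablated replicate 1 or healthy replicate 2, and 4 without FSP1 ablated replicate 3. For aSMA ablated against healthy it was 3 without aSMA ablated replicate 2 and 4 without healthy replicate 3.

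Over 21 pairs of arrays with equal replicate number, deviations from group means correlated at -0.302 to 0.381, with 6 over 0.1. Among the CCl4-treated groups the pairs of number 2 lay at 0.174 to 0.381 and those of number 3 at -0.302 to 0.251. Pairs of unequal number were not compared, so whether the numbers pair the arrays is not settled. With the replicate block, 9 members passed for CCl4 against healthy, 4 for FSP1 ablated against CCl4, 0 for aSMA ablated against CCl4, 2 for FSP1 ablated against aSMA ablated, 10 for FSP1 ablated against healthy and 5 for aSMA ablated against healthy liver. Over 42 results under the other settings, 398 of 525 values kept their direction and side of the threshold, 94 lost the call, 10 gained one and 23 changed sign; with 1 array left out, 617 of 714 did, 91 lost the call, 6 gained one and 0 changed sign. Etfa and Etfb lost their call in FSP1 ablated liver under 11 other settings each.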
